A study of Mus musculus with 30 samples.

Results

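The sham-operated hearts of this mouse study differed widely in their level of atrial muscle transcripts. Hearts above and below a set level are described here across all genes. The members were all 15 sham libraries of the 30 heart libraries of the study. The levels used are CPM, each gene's count scaled to the total of its library, and the classes were chosen by the measured level of Myl7: a library was called atrial-carrying when Myl7 was over 100 CPM. By that rule 8 sham libraries were atrial-carrying and 7 were not. Because Myl7 in these same libraries chose the classes, every difference between the classes of sham library is a description and is given without a test.

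Bulk RNA sequencing was done on hearts taken 8 weeks after sham surgery or transverse aortic constriction (TAC), a clip on the aorta that makes the heart pump against a raised pressure. FF_sham (4 libraries) came from mice with a floxed Cpt1a gene, and KO_sham (4 libraries) from mice with a Cpt1a knockout restricted to the heart. PBS_sham (3 libraries) came from C57Bl/6 mice given saline (PBS), and AAV_sham (4 libraries) from C57Bl/6 mice given AAV9.Cpt1a, a viral vector that carries Cpt1a. Each of these 4 groups had a sham operation, and each had a TAC counterpart, with 15 TAC libraries in all. FF_sham and KO_sham are called the floxed cohort here, and PBS_sham and AAV_sham the AAV9 cohort. Cpt1a, the carnitine palmitoyltransferase of the outer mitochondrial membrane, admits long-chain fatty acids to oxidation. Knockout and vector are both described as cardiac-specific, the design text calls the knockout a knockdown, and it names the vector AAV9.cTNTN.Cpt1a. The driver of the knockout, the animals' age and sex, and the chambers kept at dissection are not given in the sources used here, and the labelled tissue is heart. Nothing in them says whether libraries of a group are separate animals, so each p-value below measures the spread between libraries, which may be technical.

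Atrial and ventricular muscle cells share most of the contractile apparatus but use different isoforms of some of its parts. Atrial cells carry the myosin light chains Myl7 and Myl4, the calcium pump inhibitor sarcolipin (Sln) and stores of atrial natriuretic peptide (Nppa), a hormone released on stretch. Ventricular cells carry Myl2, Myl3 and Irx4, and in the adult ventricle Nppa returns under load while Myl7 stays low. The atria also bring the sinus node, the roots of the great veins, valve tissue, mesothelium and fat into a sample.

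The promoters of 3 genes the results turn on are printed here to show the letters just before their starts: Myl7, which chose the classes, Nppa, which ventricles can also make, and Mybphl, a sarcomere gene that followed Myl7. Each is the 250 bases before the start, from RefSeq on GRCm38.p6, read 5′ to 3′ on the strand of the gene. They are chr11:5898783-5899032 on the minus strand for Myl7, chr4:148000472-148000721 on the plus strand for Nppa, and chr3:108364661-108364910 on the plus strand for Mybphl. Capitals mark matches to letters of heart factors, searched on both strands.
Myl7: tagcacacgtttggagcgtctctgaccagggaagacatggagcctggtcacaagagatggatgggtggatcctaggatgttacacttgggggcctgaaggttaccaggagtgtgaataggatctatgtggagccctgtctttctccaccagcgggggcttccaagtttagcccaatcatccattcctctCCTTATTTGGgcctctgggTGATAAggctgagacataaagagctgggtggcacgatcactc
Nppa: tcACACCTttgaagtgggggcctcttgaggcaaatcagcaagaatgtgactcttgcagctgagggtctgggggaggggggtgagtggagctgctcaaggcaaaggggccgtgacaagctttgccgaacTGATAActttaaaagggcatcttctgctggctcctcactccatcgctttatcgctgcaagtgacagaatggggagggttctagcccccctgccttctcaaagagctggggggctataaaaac
Mybphl: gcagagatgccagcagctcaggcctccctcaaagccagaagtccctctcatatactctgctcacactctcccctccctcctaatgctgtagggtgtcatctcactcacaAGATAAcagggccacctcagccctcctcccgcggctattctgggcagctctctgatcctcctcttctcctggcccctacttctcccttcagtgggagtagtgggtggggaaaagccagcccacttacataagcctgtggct

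The Myl7 window holds a CArG box, the element of serum response factor, from -61 to -52 and the GATA letters TGATAA from -42 to -37. The Nppa window holds TGATAA from -122 to -117 and, on the opposite strand from -248 to -243, the T-box letters AGGTGT, and the Mybphl window holds AGATAA from -141 to -136. Among 32851 promoter windows of the same length, 1.47% hold a CArG box, 7.94% TGATAA, 9.99% AGATAA and 11.8% AGGTGT. A match is only a match of letters, and of the 15 genes with the largest class differences named below, 9 had a promoter in the table. No MEF2 motif (2.92% of windows) and no nuclear receptor half-site AGGTCA (14.0%) was in the windows printed here.

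Sham libraries held between 16470938 and 20734227 counts, and the 2 classes overlapped in depth (16470938 to 19964224 in atrial-carrying libraries, 16849335 to 20734227 in the others). Of 21 pairs of libraries within a sham group, none agreed within sampling noise (chi-square per degree of freedom 6.80 to 262). The tissue label was borne out in all 15: the shared heart muscle genes summed to between 36176 and 77131 CPM. Of the sham libraries, 3 stood apart. PBS_sham 3 held 36176 CPM of shared heart muscle genes against 69023 to 77131 in the other 14, and 3225 CPM of smooth muscle genes against at most 558. KO_sham 2 held 1.40 CPM of haemoglobin transcripts against 294 to 678 in the others, and FF_sham 2 held 114 CPM of Ucp1, the uncoupling protein of brown fat, against at most 2.27. All 3 were atrial-carrying, so results that rest on them are given with and without them.

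Myl7 (ENSMUSG00000020469, GRCm38 chr11:5896637-5898782, minus strand) ranged from 1 count in a whole library to 1169 CPM under the same surgery. In FF_sham it was at 0.0593, 1169, 37.7 and 0.117 CPM in libraries 1 to 4, and in KO_sham at 0.289, 601, 0.369 and 430 CPM. In PBS_sham it was at 197, 1079.6 and 415 CPM in libraries 1 to 3, and in AAV_sham at 118, 894, 19.8 and 0.554 CPM in libraries 1 to 4. All 3 PBS_sham libraries, 2 of 4 AAV_sham, 2 of 4 KO_sham and 1 of 4 FF_sham libraries were therefore atrial-carrying. The atrial-carrying library nearest the threshold was AAV_sham 1 at 118 CPM and the nearest below it was FF_sham 3 at 37.7 CPM. The other class was not uniform: FF_sham 3 and AAV_sham 3 carried 37.7 and 19.8 CPM, while the remaining 5 libraries were all under 1 CPM.

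Sarcolipin (Sln, ENSMUSG00000042045, GRCm38 chr9:53850164-53854560, plus strand) followed the same libraries. Its level was 314 CPM in FF_sham 2, 258 in KO_sham 2, 107 in KO_sham 4, 40.5, 419 and 114 in PBS_sham 1 to 3, and 36.3 and 293 in AAV_sham 1 and 2. Sln was at 0 counts in 4 of the other 7 libraries, at 0.111 CPM in AAV_sham 4, and at 9.72 and 8.02 CPM in FF_sham 3 and AAV_sham 3, the pair that also carried some Myl7. No other library reached the lowest atrial-carrying one.

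Nppa (ENSMUSG00000041616, GRCm38 chr4:148000722-148002079, plus strand), the precursor of atrial natriuretic peptide, was less sharply split. It ran from 181 through a median of 983 to 2779 CPM in the atrial-carrying libraries and from 13.7 through 105 to 289 CPM in the others. Within each cohort the classes did not overlap, but across cohorts they did: PBS_sham 3 had 181 CPM, below FF_sham 1 (188), KO_sham 1 (274) and FF_sham 3 (289), and KO_sham 1 had this level with Myl7 at 0.289 CPM. Exons of Nppa overlap those of Gm13054 on the opposite strand, and the strand setting of the counting is not given in the sources used here, so its counts may hold reads of both.

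**Figure D1:**
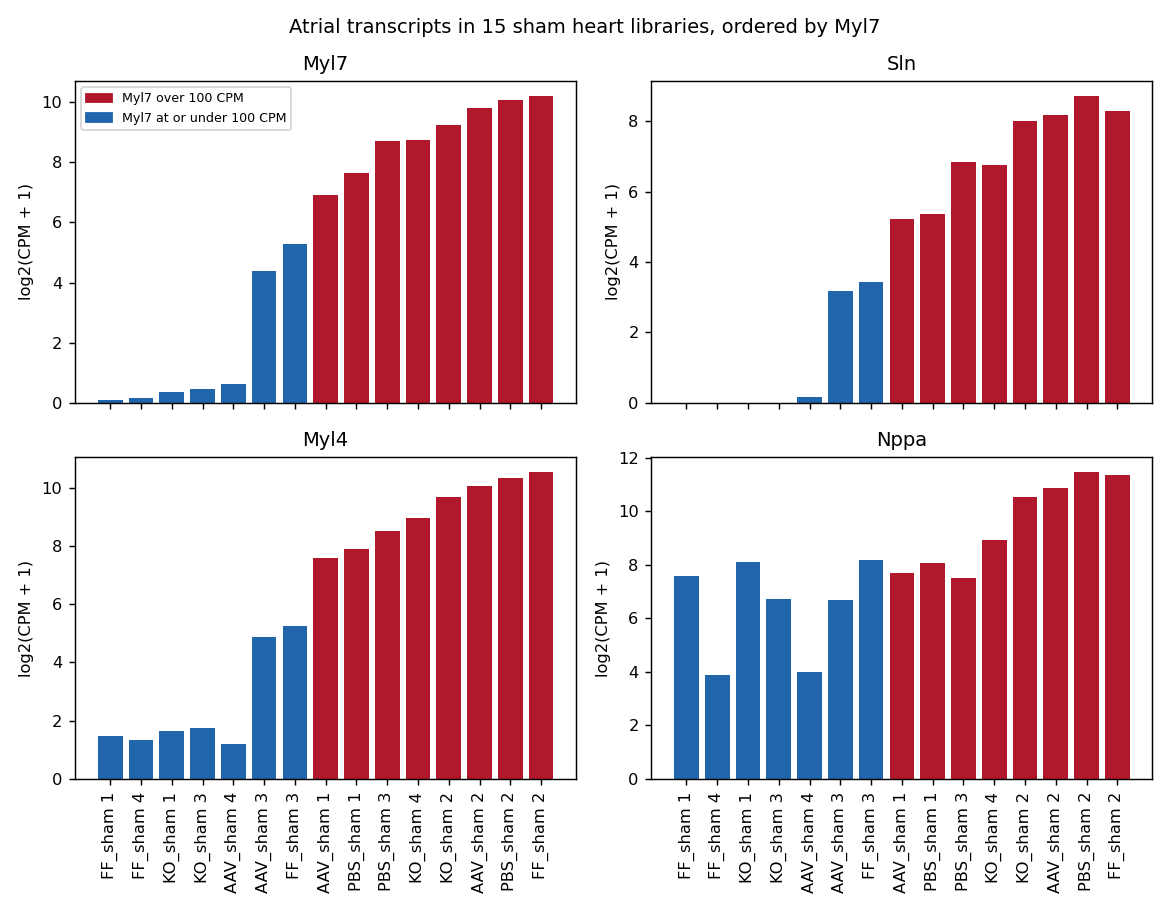
Bars give log2(CPM + 1) of Myl7, Sln, Myl4 and Nppa in each of the 15 sham libraries, ordered by Myl7, with atrial-carrying libraries in red and the others in blue. Myl7, Sln and Myl4 step up together, with FF_sham 3 and AAV_sham 3 between the extremes, while Nppa overlaps between the classes (PBS_sham 3 at 181 CPM against 289 CPM in FF_sham 3).

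The atrial transcripts kept fairly fixed proportions to one another. Over the 8 atrial-carrying libraries the ratio of Myl4 counts to Myl7 counts lay between 0.888 and 1.63, a 1.84-fold range, while Myl7 itself spanned 118 to 1169 CPM. The ratio of Sln to Myl7 lay between 0.205 and 0.430 (2.09-fold range), and that of Mybphl between 0.0518 and 0.142 (2.74-fold). These ratios are not corrected for gene length, so only their spread between libraries can be read. Nppa was looser, from 0.436 in PBS_sham 3 to 2.57 in PBS_sham 2 (5.90-fold), as were Dkk3 (4.14-fold) and the kinase gene Sbk2 (6.34-fold, lowest in PBS_sham 3). The lowest ratio of Nppa, Myl4, Mybphl, Sbk2 and Stard10 was each time in PBS_sham 3, the library with 36176 CPM of shared heart muscle transcripts.

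Bmp10, a growth factor gene known from the right atrium, separated the atrial-carrying libraries from one another. It stood at 565 CPM in PBS_sham 2 and at no more than 0.743 CPM in the other 14 sham libraries, including FF_sham 2 (0.0576 CPM), whose Myl7 was the highest of all. Bmp10 was too unevenly detected to enter the fit between the classes.

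Across all genes the classes were compared with an edgeR quasi-likelihood fit with the cohort as a block, which gives each gene a log2 difference, atrial-carrying minus other, and its standard error (SE). Of 15562 genes that passed the low-count filter, 573 (3.68%) were fitted at least 2-fold higher and 20 (0.129%) at least 2-fold lower in atrial-carrying libraries. In 416 genes (2.67%) every atrial-carrying library lay above every other library of its cohort, and in 14 genes (0.09%) below. The count of 20 was 33 without AAV_sham 4 and 31 without KO_sham 4. The median log2 difference of all genes was 0.02. The rule used this contrast, so nothing is read from these shares. Where the genes of a cell type are higher in a bulk sample, more cells of that type and more RNA per cell cannot be told apart.

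Among genes of at least 5 CPM in their higher class with no overlap in either cohort, 299 were higher and 12 lower. Of the 299, 75 were at least 2-fold higher, and none of the 12 was at least 2-fold lower. This contrast chose both sets, so nothing is read from their sizes. The 15 with the largest differences were led by muscle genes. Sln was higher by 6.16 on the log2 scale (SE 1.12), and Myl7, used by the rule, by 6.11 (SE 1.22). Mybphl, a myosin-binding protein of the sarcomere, was higher by 6.15 (SE 0.90): it ran from 16.6 through 66.4 to 156 CPM against 0 to 5.71 CPM. Myl4, the atrial essential light chain, was higher by 6.03 (SE 0.96): it ran from 193 through 653 to 1478 CPM against 1.27 to 37.2 CPM. In both genes the highest value of the other class came from FF_sham 3, the library just under the threshold.

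The remaining 11 of the 15 were not muscle filament genes. Tmem163, a zinc transporter of vesicle membranes, was higher by 5.99 (SE 0.84) and ran from 2.96 to 39.2 CPM against 0 to 1.11 CPM. Fgf12, an intracellular partner of sodium channels, was higher by 5.31 (SE 0.75), with 3.32 to 46.6 CPM against 0 to 1.22 CPM. Cilp2, a matrix protein first known from cartilage, was higher by 5.35 (SE 0.67), and Dkk3, a secreted protein of the Dickkopf family, by 5.02 (SE 0.61). Rxfp1, the receptor of the hormone relaxin, was higher by 4.27 (SE 0.50), running from 1.18 to 12.6 CPM against 0.166 to 0.990 CPM. The others were the phosphatase inhibitor Ppp1r1b (4.40), the basement membrane gene Fras1 (4.28), Lmntd1 (4.19), the copine Cpne5 (4.03), the kinase gene Sbk3 (3.93) and Cdo1, the cysteine dioxygenase (3.49), all as log2 differences. Cdo1 was highest in the 3 libraries with the most Adipoq: FF_sham 2, PBS_sham 2 and PBS_sham 3 held 50.2, 41.4 and 25.8 CPM and the other 5 atrial-carrying libraries 2.41 to 6.97 CPM. Without FF_sham 2 its difference was 2.47. Leaving out FF_sham 2, KO_sham 2 and PBS_sham 3 together left Sln at 5.57, Mybphl at 5.70, Myl4 at 5.53 and Dkk3 at 5.13. Of the 25 genes named by rank in either direction, 8 have exons that overlap a gene on the opposite strand (Mybphl, Myl4, Tmem163, Ppp1r1b, Fras1, Cpne5, Taco1 and Tnfaip8), and their counts are uncertain to that extent. The same holds for several list genes named below, among them Gja5, Kcnj3, Kcnk3, Chrm2, Adora1, Cacna1d, Cacna2d2, Shox2 and Npr3.

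A longer list of 18 atrial muscle genes graded from near-exclusive to shared. In the 17 tested the median log2 difference was 0.95 against 0.02 for all genes. Of them 9 were higher with no overlap in either cohort, against 2.67% of all genes, and 8 were at least 2-fold higher, against 3.68%. Beside Myl4, Mybphl and Dkk3 these included Sbk2 (2.58), the lipid transfer gene Stard10, the connexin Gja5 (1.69) and Pam (1.32), the enzyme that amidates peptide hormones. Stard10 ran from 48.2 through 96.9 to 238 CPM against 23.0 to 37.3 CPM, and Gja5 from 8.87 through 18.8 to 48.4 CPM against 4.32 to 8.56 CPM. Genes of atrial ion currents and receptors that ventricles or other cells also transcribe differed by less than 2-fold: the potassium channel genes Kcnj3 (0.95), Kcnj5 (0.36), Kcna5 (-0.06) and Kcnk3 (-0.15), the muscarinic receptor Chrm2 (0.23) and the adenosine receptor Adora1 (0.29). Pam overlapped between the classes, since PBS_sham 3 had 372 CPM against 450 to 705 CPM in the other class.

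**Figure D2:**
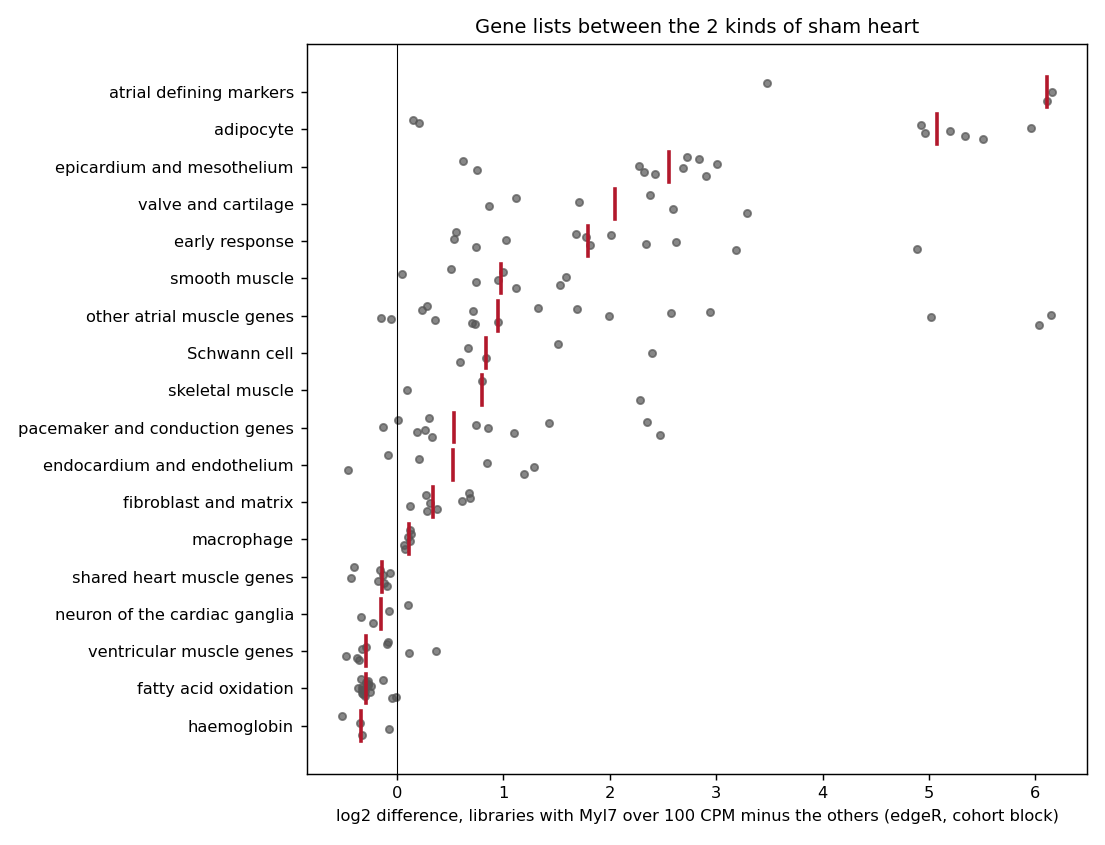
Each grey point is the log2 difference of one gene, atrial-carrying minus other sham libraries, by gene list, and the red bar is the median of the list. Adipocyte, mesothelial and valve lists lie to the right with the atrial markers, while ventricular, shared heart muscle and fatty acid oxidation lists lie just left of 0.

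Ventricular muscle genes were slightly lower in atrial-carrying libraries. None of the 9 differed by 2-fold, where 0.129% of all genes were at least 2-fold lower and 3.68% higher. Their median log2 difference was -0.29, or -0.22 without PBS_sham 3. It was -0.14 without PBS_sham 2, PBS_sham 3 and FF_sham 2 together, a choice made after seeing the data. Irx4, a transcription factor of the ventricle, was lower by 0.48 on the log2 scale (SE 0.14), with 23.9 through 36.3 to 50.2 CPM against 41.7 through 44.7 to 51.9 CPM. Myl3 and Myl2, the ventricular light chains, had log2 differences of -0.37 (SE 0.19) and -0.36 (SE 0.19), and Myh7, the slow myosin heavy chain, of 0.37 (SE 0.17). Exons of Myl2, Myl3 and Myh7 overlap genes on the opposite strand, so their counts may hold reads of both. The classes overlapped in all 9 ventricular genes. The 8 shared heart muscle genes, among them Myh6, Tnnt2 and Ttn, had a median of -0.15, which was -0.07 without PBS_sham 3.

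Genes below every other library of their cohort in atrial-carrying libraries differed little. Lbh, a transcription cofactor of limb bud and heart, was the largest at -0.68 (SE 0.30), and ran from 121 through 541 to 689 CPM against 697 through 737 to 812 CPM. Even here the lowest value was PBS_sham 3, and the difference without that library was -0.57. The mitochondrial complex I subunit mt-Nd1 (-0.31, SE 0.16) and the genes Ndufaf1 (complex I assembly, -0.39), Taco1 (translation of cytochrome oxidase, -0.36), Gatb (mitochondrial transfer RNA charging, -0.37), Suclg2 (citric acid cycle, -0.33) and Hadhb (trifunctional protein of fatty acid oxidation, -0.37) were lower. Tnfaip8 (-0.43), the acylphosphatase Acyp2 (-0.37) and the adenosine kinase Adk (-0.37) made up the 10 named. Without PBS_sham 3 the 10 differences lay between -0.57 (Lbh) and -0.22 (Suclg2). Among the 18 genes of fatty acid oxidation, none differed by 2-fold, where 0.129% of all genes were at least 2-fold lower and 3.68% higher. The median log2 difference was -0.30, or -0.19 without PBS_sham 3. Only Hadhb did not overlap, where 0.09% of all genes were lower without overlap. Summed, that list held 2788 CPM in PBS_sham 3 against 8629 to 10980 CPM in the other 14 libraries. Cpt1a, the gene the study manipulates, had a log2 difference of -0.05 (SE 0.24), with 25.9 through 50.4 to 94.3 CPM against 20.6 through 43.6 to 68.3 CPM.

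Pacemaker and conduction genes were partly higher. Of 14 genes 12 were tested and 4 were at least 2-fold higher, against 3.68% of all genes. Among the 4 were Cacna2d2 (2.35, SE 0.67) and Cacna1d (1.43, SE 0.31), subunits of calcium channels, and Shox2 (1.10, SE 0.55), a sinus node transcription factor. Shox2 was uneven: it stood at 5.46 CPM in PBS_sham 2 and 3.88 in KO_sham 4, but at 0.182 in KO_sham 2 and 0.576 in FF_sham 2, within or below the 0.482 to 1.25 CPM of the other class. Cacna1g, the T-type calcium channel, did not overlap in either cohort, with 28.2 through 33.5 to 41.7 CPM against 14.7 through 16.7 to 20.98 CPM. Hcn4, the main pacemaker channel gene of the sinus node, overlapped widely (2.82 to 21.7 CPM against 5.32 to 12.2 CPM). Cacna2d2 was uneven, at 56.7 CPM in PBS_sham 2, the Bmp10-bearing library, at 21.02 in KO_sham 4, and at 1.66 to 11.7 CPM in the other 6.

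Transcripts of tissues that adjoin the atria were higher in some atrial-carrying libraries and not in others. Of 10 mesothelial and epicardial genes, 8 were at least 2-fold higher (median log2 difference 2.56), against 3.68% of all genes. None was free of overlap, where 2.67% of all genes were higher without overlap, so this is not read as a trait of the list. Upk3b, a mesothelial surface protein, was at 176 CPM in PBS_sham 2, 116 in PBS_sham 3 and 49.3 in FF_sham 2, while the other 5 atrial-carrying libraries held 2.36 to 19.0 CPM against 0 to 10.9 CPM in the other class. The summed list was 415 CPM in PBS_sham 2, 314 in PBS_sham 3, 130 in FF_sham 2 and 16.1 to 66.6 in the other 5, against 10.9 to 39.8 CPM. Leaving out PBS_sham 2, PBS_sham 3 or FF_sham 2 singly left 8 genes at least 2-fold higher. Leaving out those 3 together, a choice made after seeing the data, left 5 of 9 tested, with a median of 1.06.

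Fat markers were carried by the same few libraries. Of 8 adipocyte genes tested, 6 were at least 2-fold higher, against 3.68% of all genes. The median of the list was 5.08. None of its genes was free of overlap, where 2.67% of all genes were higher without overlap. Adipoq, the hormone adiponectin, was at 44.7, 32.4 and 22.7 CPM in PBS_sham 2, FF_sham 2 and PBS_sham 3, and at 0.0607 to 4.23 CPM in the other 5 atrial-carrying libraries against 0 to 1.23 CPM. KO_sham 2 and AAV_sham 2, with 601 and 894 CPM of Myl7, had 0.0607 and 0.601 CPM of Adipoq. Their summed adipocyte lists, 438 and 517 CPM, lay within the 431 to 591 CPM of the other class. Adipoq was at most 1.23 CPM in that class, so a sum in this range cannot show whether fat was present. The median of the list was 3.97 without FF_sham 2, 4.79 without PBS_sham 2 and 2.85 without PBS_sham 2, PBS_sham 3 and FF_sham 2 together, with 6 of 8 genes at least 2-fold higher each time.

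Valve and cartilage genes were higher in atrial-carrying libraries, but not in the order of Myl7. The sum of the 8 genes was 37.7 to 146 CPM in atrial-carrying libraries and 11.2 to 27.4 CPM in the others, with no overlap. It was lowest in FF_sham 2 (37.7 CPM), which had the most Myl7, and stood at 75.4 CPM in AAV_sham 1, which had the least of that class. The median of the 6 tested was 2.04. Of them 5 were at least 2-fold higher, against 3.68% of all genes: Hapln1 (3.29), Chad (2.59), Comp (2.38), Cytl1 (1.71) and Wif1 (1.12). Of the 6 only Comp, a cartilage matrix protein, was free of overlap in both cohorts, where 2.67% of all genes were higher without overlap. Comp ran from 9.44 through 16.1 to 61.7 CPM against 0.609 through 3.06 to 6.75 CPM. Among 6 genes of endocardium and endothelium, Plvap (1.29, SE 0.29), of fenestrated endothelium, and Npr3 (1.20, SE 0.26), the clearance receptor of natriuretic peptides and an endocardial marker, were higher, while the general markers Pecam1 (0.21) and Cdh5 (-0.08) differed little. Of 5 Schwann cell genes 2 were at least 2-fold higher (3.68% of all genes were), among them S100b (1.51), with a median of 0.84. Without PBS_sham 3, whose summed Schwann cell level of 66.2 CPM was the highest, 1 of 4 tested was, with a median of 0.58. Of 12 genes of cardiac ganglion neurons 4 passed the low-count filter, with a median of -0.15, and Chat and Slc18a3, which define cholinergic neurons, were at 0 counts in all 15 libraries.

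Smooth muscle genes rested on 1 library. Of 8, 3 were at least 2-fold higher, against 3.68% of all genes, with a median of 0.97. Without PBS_sham 3 none was, and the median was 0.35. Myh11, the smooth muscle myosin heavy chain, was at 969 CPM in PBS_sham 3 and at 20.6 to 94.2 CPM in the other 14 libraries, with its second highest value in FF_sham 3, a library of the other class. Fibroblast genes (8 tested, median 0.34) and macrophage genes (6 tested, median 0.11) held none at least 2-fold higher. Markers of lung, thymus and liver were near 0 in both classes: the summed lists reached at most 4.15, 0.864 and 0.729 CPM. The part of these other tissues in the class differences was not tested.

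**Figure D3:**
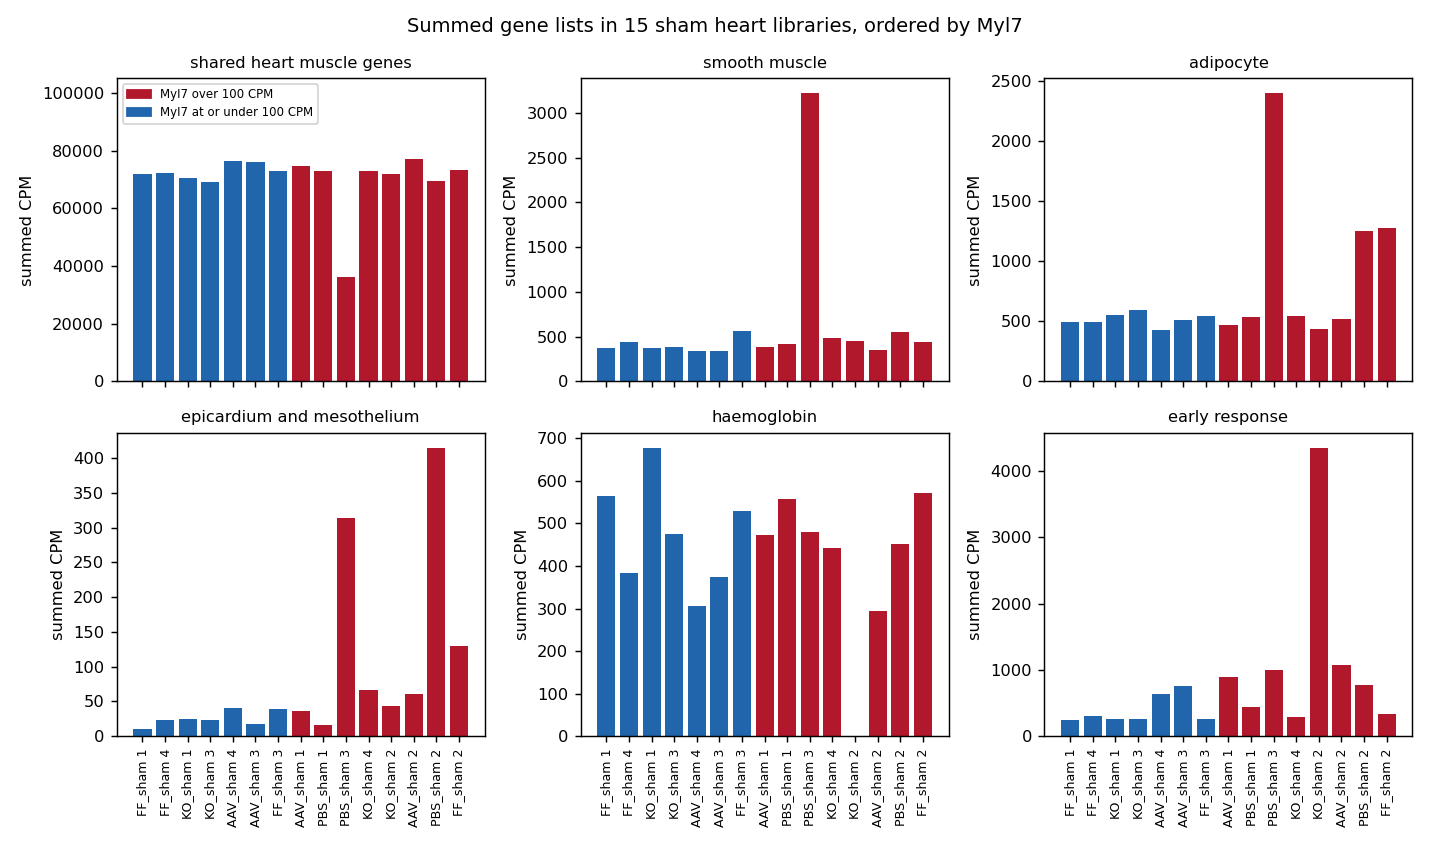
Bars give the summed CPM of 6 gene lists in each sham library, ordered by Myl7, with atrial-carrying libraries in red and the others in blue. PBS_sham 3 is low in shared heart muscle (36176 CPM) and high in smooth muscle (3225 CPM), KO_sham 2 has 1.40 CPM of haemoglobin and the highest early response sum, and mesothelial and adipocyte sums are high in PBS_sham 2, PBS_sham 3 and FF_sham 2.

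Early response genes, which are switched on within minutes of stress or during tissue handling, rested on 1 library. Of 12 genes 9 were at least 2-fold higher (median 1.79), against 3.68% of all genes. Without KO_sham 2 none of the 12 was, and the median was 0.17. Fos was at 610 CPM in KO_sham 2 and at 1.01 to 35.9 CPM in the other 14 libraries. In the floxed cohort the summed list was 4352 CPM in KO_sham 2 and 250 to 331 CPM in the other 7, while in the AAV9 cohort it ran from 435 to 1067 CPM in both classes. KO_sham 2 was also the library with haemoglobin transcripts near 0. The 4 haemoglobin genes overlapped between the classes (median log2 difference -0.34).

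The atrial genes differed in both cohorts when each was fitted alone. Myl7, Sln, Myl4 and Mybphl were named for no overlap in either cohort, so this was largely set by their choice. In the floxed cohort (3 atrial-carrying and 5 other libraries) the log2 differences were 6.55 (SE 1.41) for Myl7, 6.86 (SE 1.12) for Sln, 6.66 (SE 1.05) for Myl4, 6.23 (SE 0.86) for Mybphl and 3.09 (SE 0.75) for Nppa. In the AAV9 cohort (5 and 2 libraries) they were 5.55 (SE 1.59), 5.29 (SE 1.68), 5.26 (SE 1.48), 6.01 (SE 1.54) and 4.04 (SE 1.59) in the same order. The differences between cohorts were within the standard errors and were not tested.

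Atrial transcripts were not shown to follow the labelled sham groups. On log2(CPM + 1), the mean of Myl7 was 0.77 higher in KO_sham than in FF_sham (two-sided exact permutation test, p = 0.857, Benjamini-Hochberg adjusted over 3 comparisons 0.857). It was lower in AAV_sham than in PBS_sham by a log2 difference of -3.37 (exact permutation p = 0.229, adjusted 0.349). The smallest p that either design allows is 0.0286. It was 2.56 higher in the AAV9 than in the floxed cohort (exact permutation p = 0.233 over 6435 splits, adjusted 0.349). The KO_sham difference turned negative when KO_sham 2, KO_sham 4, FF_sham 1 or FF_sham 4 was left out (-0.74 to -0.48). The cohorts differ in labelled genotype and in injection, which cannot be told apart.

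The labelled groups were then compared across all genes with and without the atrial class as a term, with edgeR's quasi-likelihood test and Benjamini-Hochberg adjustment. Between KO_sham and FF_sham 0 of 15872 genes (0%) passed an adjusted p of 0.05. At an unadjusted p under 0.05 there were 849 genes, and DESeq2 called 3. With the atrial class as a term the count stayed at 0, with 696 genes at an unadjusted p under 0.05. Cpt1a, the targeted gene, was at 36.7, 46.4, 53.9 and 43.6 CPM in FF_sham 1 to 4 and at 23.5, 46.2, 20.6 and 25.9 CPM in KO_sham 1 to 4. KO_sham 2 therefore lay within the range of FF_sham. The log2 difference was -0.68 (SE 0.25, edgeR adjusted p = 0.819), and -0.77 (SE 0.26, edgeR adjusted p = 0.9999) with the class term. Without KO_sham 2 it was -1.02.

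In this comparison fat genes rested on FF_sham 2 and early response genes on KO_sham 2. Early response genes had a median log2 difference of 2.55, KO_sham minus FF_sham, with 10 of 12 fitted at least 2-fold higher and none past the threshold. Among all genes 1.47% were fitted at least 2-fold higher. Without KO_sham 2 the median of the list was -0.07. Adipocyte genes had a median of -2.06, with 6 of 9 fitted at least 2-fold lower against 0.592% of all genes, and without FF_sham 2 the median was 0.48. The 17 tested atrial muscle genes had a median of -0.26, and without FF_sham 2 it was 0.63.

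Between AAV_sham and PBS_sham 3 of 15872 genes (0.0189%) passed, all lower in AAV_sham. They were Zfp811, a zinc finger gene (log2 difference -2.52, SE 0.37), Banp (-1.24, SE 0.19), a DNA-binding protein gene, and Trim47 (-0.91, SE 0.14), a ubiquitin ligase gene, each with an edgeR adjusted p of 0.0462. Zfp811 stood at 0.318 ± 0.0839 CPM (SD, n = 4) in AAV_sham and 2.27 ± 1.34 CPM (SD, n = 3) in PBS_sham. Exons of Banp overlap a gene on the opposite strand. With the atrial class as a term 0 genes passed, and 2229 had an unadjusted p under 0.05 against 3304 without the term. All 3 PBS_sham libraries were atrial-carrying, so in this comparison the class varied only within AAV_sham. Without PBS_sham 1 the count was 2788, and without any other single library of the 2 groups it was 0.

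In the same comparison the tissue lists again differed in level. Smooth muscle genes had a median log2 difference, AAV_sham minus PBS_sham, of -2.60, and of -0.78 without PBS_sham 3. Adipocyte genes had a median of -4.53 and mesothelial genes of -2.72, with 7 of 9 and 10 of 10 fitted at least 2-fold lower and none past the threshold, where 6.39% of all genes were fitted at least 2-fold lower and 0.662% at least 2-fold higher. Without PBS_sham 2 these medians were -3.67 and -1.76. The mesothelial sum was 415 and 314 CPM in PBS_sham 2 and 3, but in PBS_sham 1 it was 16.1 CPM, below the 17.2 to 60.6 CPM of all 4 AAV_sham libraries. With PBS_sham 2, PBS_sham 3 and FF_sham 2 left out, so that PBS_sham 1 alone stood for its group, the mesothelial median was 2.11 and the adipocyte median -1.45. Cpt1a was at 35.1, 54.4 and 94.3 CPM in PBS_sham 1 to 3 and at 87.9, 55.3, 68.3 and 61.6 CPM in AAV_sham 1 to 4. Its log2 difference was 0.44 (SE 0.27, edgeR adjusted p = 0.335), 0.57 (SE 0.28, edgeR adjusted p = 0.375) with the class term, and 0.69 without PBS_sham 3.

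The genes named in sham hearts were also compared in the 15 TAC libraries, with the classes again set by Myl7. By the same threshold 3 of 15 TAC libraries were atrial-carrying: KO_TAC 1 with 3550 CPM of Myl7, PBS_TAC 2 with 669 and AAV_TAC 3 with 268. FF_TAC 1 had 75.5 CPM and the other 11 at most 0.674 CPM. With the labelled group as a block, 297 of 16277 genes (1.82%) were higher in the atrial-carrying TAC libraries at an edgeR adjusted p of 0.05 and 5 (0.0307%) were lower. The total of 302 was 44 without KO_TAC 1, 121 without PBS_TAC 2, 172 without KO_TAC 3 or KO_TAC 4, and 177 without PBS_TAC 3. KO_TAC 1 stood apart: its lung epithelial genes summed to 683 CPM against at most 12.3 CPM in the other TAC libraries, and its early response genes to 6568 CPM against at most 4869. Their part in the calls was not tested. Of the 14 genes named as higher in sham hearts, leaving Myl7 out, 13 passed in the same direction and the median log2 difference was 6.01 against 0.01 for all genes. Genes that follow Myl7 in one set of libraries were chosen here, and Myl7 chose the TAC classes too. That most of them passed was therefore largely set in advance. No p-value between the TAC classes is independent support, since Myl7 in those libraries chose the classes.

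Sln was at 1240, 232 and 106 CPM in KO_TAC 1, PBS_TAC 2 and AAV_TAC 3 and at 0 to 31.7 CPM in the other 12 (edgeR adjusted p = 0.000389). Dkk3 was at 107 to 568 CPM against 3.46 to 24.1 CPM (edgeR adjusted p = 2.8e-05). Cdo1 was the exception, with a log2 difference of 1.65 (SE 0.44, edgeR adjusted p = 0.0845). None of the 10 genes named as lower passed, although all 10 had a negative difference, with a median of -0.27. Bmp10 again divided the atrial-carrying libraries, at 403 CPM in PBS_TAC 2, 270 in AAV_TAC 3 and 0.778 in KO_TAC 1, whose Myl7 was the highest. Without KO_TAC 1 the count of 13 was 10, as Fras1 (edgeR adjusted p = 0.131), Sbk3 (0.106) and Ppp1r1b (0.0592) no longer passed. Of the 18 other atrial muscle genes 13 passed as higher, against 1.82% of all genes. The list holds genes of atrial muscle and Myl7 chose the classes, so these passes too were largely set in advance. Of the 9 ventricular, 8 shared muscle, 12 early response and 18 fatty acid oxidation genes none passed.

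**Figure D4:**
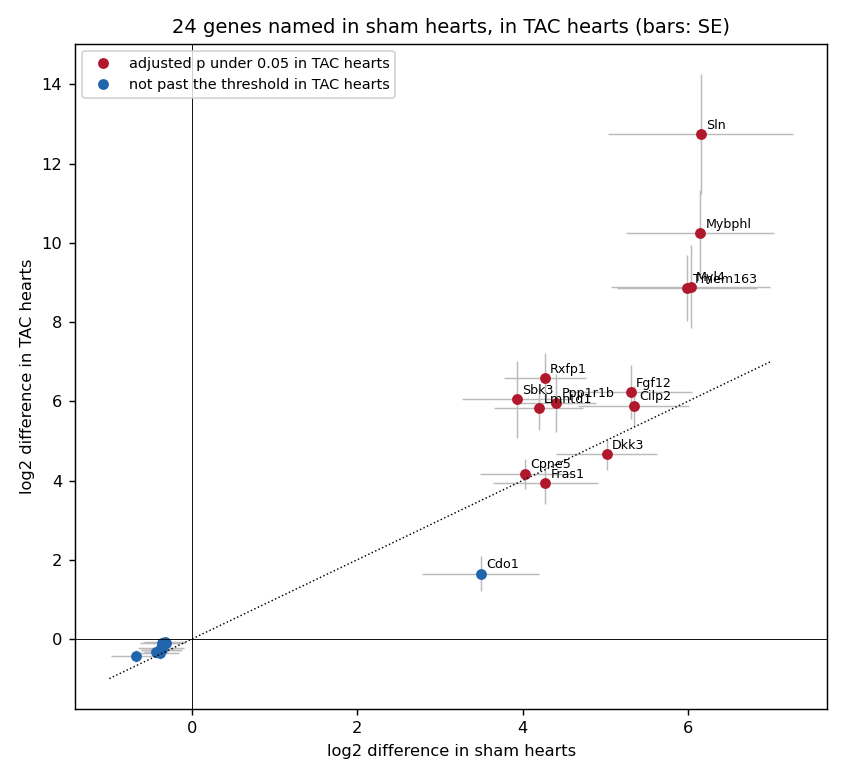
Each point is one of 24 genes named in sham hearts, with its log2 difference between atrial-carrying and other libraries in sham hearts (x axis) and TAC hearts (y axis), bars of 1 SE and a dotted line of equality. The 13 genes past the threshold in TAC hearts are red, and Cdo1 and the 10 genes with lower levels are blue.

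Nppa was also high in TAC libraries with little Myl7. In TAC libraries with Myl7 under 1 CPM it reached 8513 CPM in KO_TAC 3, 6360 in KO_TAC 2 and 4458 in KO_TAC 4, and it lay between 135 and 936 CPM in the other 8. Between atrial-carrying and other TAC libraries it had a log2 difference of 0.84 (SE 0.46, edgeR adjusted p = 0.316). In the 5 sham libraries with Myl7 under 1 CPM it was at 13.7 to 274 CPM. In sham hearts the highest Nppa values were thus in libraries with atrial transcripts, and in TAC hearts they were also in KO_TAC libraries without them.

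**Figure D5:**
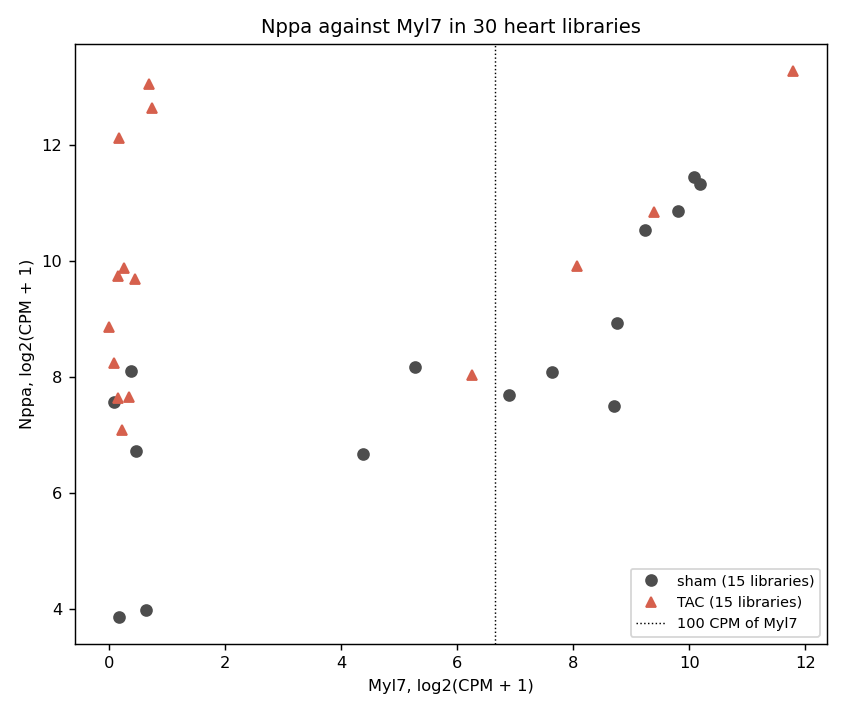
Each point is a library, with Myl7 on the x axis and Nppa on the y axis, both as log2(CPM + 1), sham in grey and TAC in red, and the dotted line at 100 CPM of Myl7. Sham libraries above 1000 CPM of Nppa all lie right of the line, while 3 TAC libraries of KO_TAC with Nppa of 4458 to 8513 CPM lie at its far left.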

How the data were processed

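Heart RNA was sequenced as poly(A)-selected, strand-marked libraries, per the labels' protocols. The deposited values are raw read counts per gene; per the submitters' processing notes the authors used HISAT2 2.1.0, featureCounts and Subread 1.5.1 with GRCm38, and the strand setting of the counting is not given in the sources used here. Of 55487 gene identifiers 55141 had a symbol in GENCODE M21; the other 346 held 0.0192% of counts. From the counts, CPM were computed over library totals, and genes were fitted with edgeR 4.0.16 in R 4.3.3 (TMM, filterByExpr, quasi-likelihood), with DESeq2 1.42.0 as an alternative, and the fits were tested on simulated data. Named genes were the 15 largest higher and 10 largest lower differences among genes of at least 5 CPM in the higher class with no overlap in either cohort, and the genes of the lists; for labelled groups, the 3 largest changes each way among those called. The members and the gene lists were chosen with earlier results of these data known. Alternatives were other normalizations, filters, thresholds, blocks and leaving out each library. Samples of miR370 overexpression named in the study's design were not analysed here. Single results on a few list genes are not reported here.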

Additional observations from a re-analysis of the deposited data

Results flagged for a closer look

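In groups of 4 libraries, a library was set apart when its gap to the nearest one filled more than 0.829 of the group's range. This is Dixon's critical value, which chance passes in about 1 in 20 groups of normally distributed values. Most measures were CPM without a log, for which that rate need not hold, so the share below is not read against it. Of 75 combinations of measure and group examined, 9 (12.0%) passed, and several share a library, so they are not separate events. In FF_sham, library 2 stood far above the others in Myl7 (1169 CPM against 0.0593 to 37.7), Sln (314 CPM against 0 to 9.72) and Nppa (2581 CPM against 13.7 to 289). It also stood apart in the sum of the other atrial muscle genes (5686 CPM against 1087 to 1379) and of the adipocyte genes (1281 CPM against 491 to 543). In AAV_sham, library 2 stood apart in Myl7 (894 CPM against 0.554 to 118), Sln (293 CPM against 0.111 to 36.3) and Nppa (1850.2 CPM against 14.8 to 205). In KO_sham, library 2 stood apart in the mean log2 level of the early response genes (8.16 against 3.67 to 3.91). PBS_sham, with 3 libraries, could not be examined this way.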

How the results depend on the processing

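None of the 25 named genes changed sign between the classes of sham heart in any of its alternatives, and neither did Nppa, while Cpt1a lay between -0.39 and 0.26. The 25 were chosen for no overlap between the classes in these same libraries, so their kept sign was largely set by that choice. The number of genes at least 2-fold apart between the classes, 593, was 6209 with no filter on low counts, 184 when genes averaging under 5 CPM were dropped, 1238 within the AAV9 cohort, 384 without PBS_sham 2, PBS_sham 3 and FF_sham 2 (chosen after seeing the data) and 466 to 658 when single libraries were left out. Same-numbered libraries of FF_sham and KO_sham correlated at -0.219 to 0.252, and those of PBS_sham and AAV_sham at -0.298 to 0.179. No pairing by replicate number was seen, but correlations over so few libraries cannot exclude a batch shared by number. With the replicate number as a block beside the cohort, 998 genes were at least 2-fold apart, 62 of them lower; the replicate block left 0 calls between KO_sham and FF_sham and 0 between AAV_sham and PBS_sham. Between KO_sham and FF_sham the difference of Myl7 was -43.9 on CPM without a log and -0.74 to 2.86 without single libraries, and DESeq2 called 3 genes. Between AAV_sham and PBS_sham the 3 calls became 0 with the atrial class as a term, with log2 Myl7 as a covariate, with RLE size factors and with only the 2 groups in the fit, 51 with no filter, 296 with DESeq2, and 0 to 2788 without single libraries. Leaving out KO_sham 2, PBS_sham 3 and FF_sham 2 together, or PBS_sham 2, PBS_sham 3 and FF_sham 2, alternatives chosen after seeing the data, gave 0. The count of 13 in TAC hearts lay between 9 and 14 in its alternatives, while the total of 302 calls there was 94 when genes averaging under 5 CPM were dropped, 115 in the AAV9 cohort alone (chosen after seeing the data), 637 with DESeq2, 793 with no filter, 920 at a Myl7 threshold of 50 CPM and 1405 with the replicate number as a block beside the labelled group. A Myl7 threshold of 10 CPM, also chosen after seeing the data, raised the log2 difference of Myl7 to 10.69 and of Sln to 12.42. The causes were not tested. Depth limits genes such as Tmem163, with at most 19 counts in any library of the other class.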
